A study of Rattus norvegicus with 9 samples.

Results

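The untreated medial prefrontal cortex of Wistar Kyoto rats is described here from the 3 libraries titled Control, out of 9 in the series. They were chosen by their label alone, and no measured value entered the choice. The other 6 libraries came from rats given K4 or ketamine and were not analysed here. Wistar Kyoto is an inbred rat strain used in studies of depression-like behaviour. Control rats received neither compound, and their tissue was collected on day 15, as in the other groups. For these rats the labels name no vehicle, cannula, age, sex or hour of dissection. Nor do they say that each library came from its own animal, so the spread among the 3 libraries may be technical. Sequencing libraries held polyadenylated RNA and kept its strand.

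The medial prefrontal cortex is a frontal region whose pyramidal neurons release glutamate and whose local interneurons release GABA. Glutamate opens AMPA, kainate and NMDA receptor channels, GABA opens GABA-A receptor channels, and both act on slower receptors coupled to G proteins. Dopamine, noradrenaline, serotonin and most acetylcholine reach the cortex in axons of neurons that lie elsewhere, so cortical RNA holds the receptors for these transmitters but little of the RNA for making them.

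Levels are in TPM, an abundance of transcripts corrected for their length that adds to 1000000 in each library, so that genes can be set against each other. Values of replicates 1, 2 and 3 are given in that order, and ± marks the SD over those libraries (n = 3). The libraries held 42729200, 42731004 and 40863756 counts. The 37 mitochondrially encoded genes took 36.2, 43.5 and 30.7% of TPM (36.8% ± 6.47, SD, n = 3), highest in replicate 2 and lowest in replicate 3. TPM is a share of the library, so a larger mitochondrial part leaves less for all other genes. Deposited TPM was highest in replicate 3 for 69.0% of the 15191 genes with a mean of at least 1 TPM, and lowest in replicate 2 for 74.3%. Levels are therefore given as deposited, and library differences were also read after the TPM of the nuclear genes had been rescaled to 1000000 without the mitochondrial genes. After rescaling, replicate 3 was highest for 38.2% of 15154 nuclear genes and replicate 2 lowest for 45.8%. Of 37991 genes in the table, 14673 reached 1 TPM in every library, among them 13562 of 22640 protein-coding genes and 552 of 7259 long non-coding RNA genes. Of the 545 genes in the lists used here, 91 had a mean of at least 100 TPM, 364 lay from 1 to 100 TPM, and 90 were below 1 TPM, including 20 without a count in any library.

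The RNA carried the markers of cortex. These are levels in whole tissue, where fewer cells of a type and less RNA per cell cannot be told apart. Slc17a7, the vesicular glutamate transporter of cortical pyramidal cells, stood at 781, 606 and 964 TPM, while Slc17a6, the transporter typical of thalamus and brainstem, stood at 3.49, 3.07 and 4.401 TPM. Within each library Slc17a7 exceeded Slc17a6 by a ratio of 213 ± 13.97. The cortical transcription factors Neurod2 and Tbr1 averaged 43.2 ± 7.32 and 39.5 ± 8.78 TPM. Genes of neighbouring regions were low. Prox1 of dentate granule cells averaged 3.06 ± 0.2802 TPM, Tcf7l2 and Tnnt1 of thalamus 3.81 ± 0.138 and 1.99 ± 0.191 TPM, and Eomes of the olfactory bulb 0.0561 ± 0.0185 TPM. Zic1, expressed in septum and thalamus, averaged 12.2 ± 2.12 TPM. Lef1 of thalamus averaged 4.93 ± 0.571 TPM, and the olfactory bulb genes Cdhr1 and Doc2g 6.89 ± 1.96 and 2.902 ± 0.292 TPM. In the list of thalamic, hippocampal, midbrain and olfactory genes the 4 most abundant were Wfs1 at 162 ± 30.7, Zic1, Calb2 at 11.9 ± 2.05 and Prkcd at 7.94 ± 1.34 TPM, of which Wfs1 and Calb2 are also expressed by cortical neurons, and the lowest was the dopamine transporter Slc6a3 at 2, 0 and 0 counts. Striatal markers were mixed. Ppp1r1b, which encodes the phosphatase regulator DARPP-32, averaged 59.8 ± 3.12 TPM, and the phosphodiesterase Pde10a and the transcription factor Foxp1 averaged 17.9 ± 4.03 and 13.5 ± 1.73 TPM. The peptide precursors Penk and Tac1, which cortical interneurons also express, averaged 36.9 ± 9.53 and 25.2 ± 4.97 TPM. By contrast Rgs9 and Gpr6, which are rich in striatum, averaged 2.09 ± 0.272 and 1.404 ± 0.424 TPM, and Isl1, a factor of striatonigral neurons, had 0 counts in all 3 libraries. A count of 0 allows up to 3 counts in a library, here at most 7.34e-06% of its counts, and this limit covers counting error only.

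NMDA receptors, the targets of ketamine, are tetramers of the obligatory GluN1 subunit with GluN2 or GluN3 subunits. Grin1, which encodes GluN1, was the most abundant of the family at 180.3, 144 and 219 TPM, lowest in replicate 2 and highest in replicate 3. Its libraries did not overlap those of the next gene, Grin2b, at 61.5, 44.9 and 71.9 TPM. Grin2a followed at 39.3, 30.03 and 46.3 TPM. Grin2b exceeded Grin2a inside every library, although their ranges over libraries overlapped, and the Grin2a to Grin2b ratio was nearly fixed at 0.651 ± 0.0156. Grin2c, a subunit known from astrocytes and cerebellum, stood at 32.2, 34.6 and 26.995 TPM and was highest in replicate 2, against the order of Grin2a and Grin2b. As shares of the summed GluN2 transcripts, Grin2b took 44.5% ± 4.23, Grin2a 28.9% ± 2.23, Grin2c 24.2% ± 6.36 and Grin2d 2.42% ± 0.279. Such shares do not depend on the mitochondrial share. The share of Grin2c ranged from 18.2% in replicate 3 to 30.9% in replicate 2. Grin3a, a subunit that lowers calcium entry, averaged 8.73 ± 2.75 TPM, while Grin3b had only 3, 0 and 5 counts. In all, 3 of the 5 neighbouring pairs in the family order separated, meaning that the lowest library of the higher gene lay above the highest library of the lower one. No p-value accompanies such an order, since an exact permutation test of 3 against 3 values cannot go below 0.1.

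AMPA receptors carry the fast excitatory current, and the GluA2 subunit makes them impermeable to calcium. Gria2, which encodes GluA2, led at 264, 188 and 285 TPM, followed by Gria3 at 168, 128 and 186 TPM and Gria1 at 104, 75.3 and 113 TPM. Gria4 was lowest at 68.95, 54.2 and 76.4 TPM. All of these were lowest in replicate 2 and highest in replicate 3 in deposited TPM, yet their proportions hardly moved. Gria2 made up 42.99% ± 0.771 of the 4 transcripts, Gria3 28.2% ± 0.553, Gria1 17.1% ± 0.1804 and Gria4 11.7% ± 0.403. The Gria2 to Gria1 ratio was 2.54, 2.498 and 2.51 in the 3 libraries (2.52 ± 0.0203), the smallest relative spread among the 10 ratios of gene pairs computed here. Auxiliary proteins set the gating and trafficking of these channels. Cnih2, a cornichon, averaged 224 ± 6.904 TPM, and the transmembrane regulators Cacng3, Cacng7 and Cacng8 averaged 139 ± 29.4, 105 ± 5.36 and 56.98 ± 9.89 TPM. Stargazin, encoded by Cacng2, averaged 39.8 ± 6.41 TPM, and Shisa6, at 3.29 ± 0.673 TPM, was the lowest of the 10 auxiliary genes. Cnih2, Cacng7 and Cacng4 had low coefficients of variation (CV, the SD as a percent of the mean) of 3.08, 5.09 and 4.42% in deposited TPM, which became 10.7, 14.98 and 13.2% after rescaling, beside a median of 9.29% over nuclear genes. Among kainate and delta receptors the kainate subunit gene Grik5 led at 87.5 ± 7.79 TPM, above Grik2 at 27.95 ± 4.95 TPM without overlap. Grik1 was the lowest of them at 7.33 ± 0.546 TPM.

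Metabotropic glutamate receptors signal through G proteins. Grm3, found on astrocytes as well as neurons, stood at 81.6, 80.3 and 73.04 TPM and was the only member of its family lowest in replicate 3. Grm5, which couples to calcium release, followed at 53.04, 39.5 and 64.1 TPM, and Grm2, an inhibitory receptor of axon terminals, at 30.6, 20.1 and 35.5 TPM. The order Grm3, Grm5, Grm2 held inside each library, with no overlap between neighbours. Grm7, another inhibitory receptor of terminals, averaged 23.8 ± 5.78 TPM. Grm8 ranged widely, at 11.3, 5.71 and 13.7 TPM, a highest-to-lowest ratio of 2.404 that became 1.96 after rescaling. Grm6, the receptor of retinal bipolar cells, was lowest at 1.21 ± 0.312 TPM.

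GABA-A receptors are pentamers, usually of alpha, beta and gamma subunits. Gabra2, an alpha subunit, stood at 123, 101 and 125 TPM, lowest in replicate 2. Gabra4, Gabra5 and Gabra3 averaged 86.4 ± 14.1, 64.5 ± 7.38 and 62.8 ± 12.3 TPM, and Gabra2 lay above each of them in every library. The beta subunit genes Gabrb2 and Gabrb1 averaged 73.6 ± 18.1 and 41.7 ± 6.59 TPM. Gabrg1, a gamma subunit that glia express as well as neurons, was highest in replicate 2 at 61.3, 75.8 and 64.1 TPM, unlike the alpha and beta subunits named here. Gabrd, the subunit of extrasynaptic receptors, averaged 35.7 ± 6.85 TPM. Gabrq ranged from 0.6795 TPM in replicate 2 to 1.56 TPM in replicate 3, Gabra6, a cerebellar subunit, had 13, 0 and 22 counts, and Gabrp had none. Both GABA-B subunits, which form a receptor coupled to G proteins, were abundant: Gabbr1 stood at 365, 318 and 388 TPM and Gabbr2 at 158, 123 and 184 TPM. Of the glycine receptor genes only Glrb, the beta subunit, was high, at 72.99 ± 15.8 TPM, against 5.07 ± 1.27 TPM for the alpha subunit Glra2.

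**Figure D1:**
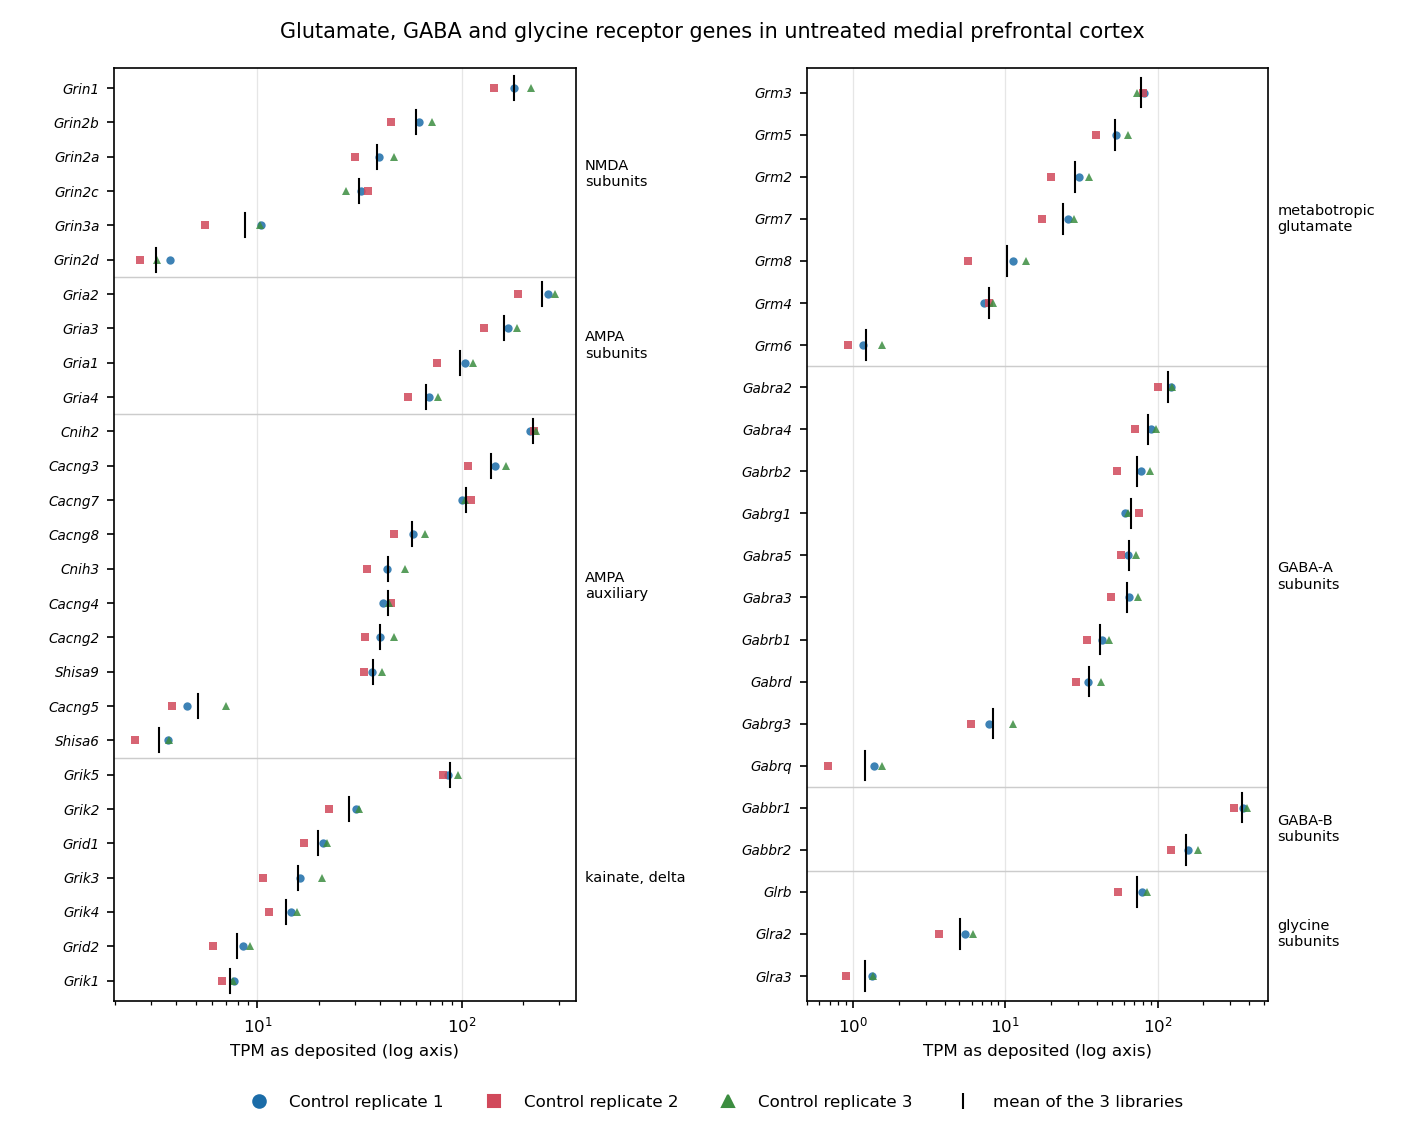
Deposited TPM (log axis) of glutamate, GABA and glycine receptor genes, each with a mean of at least 1 TPM, with a point for each Control library and a bar at the mean. Replicate 2 (squares) lies lowest for most genes; Grin2c, Gabrg1 and Cacng7 are among those where it lies highest, with Gabrg1 at 75.8 TPM in replicate 2 against 61.3 and 64.1 in replicates 1 and 3.

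Serotonin acts through many receptor types, and 9 of the 14 genes had a mean of at least 1 TPM. Htr2a, the excitatory receptor bound by psychedelics, stood at 24.3, 15.9 and 33.7 TPM and was the highest of them. Htr2c followed at 18.8, 12.7 and 22.3 TPM, lower than Htr2a inside each library though the ranges overlapped. Htr5a averaged 8.23 ± 1.91 TPM, Htr1b, a receptor of axon terminals, 7.34 ± 2.48 TPM, and Htr3a, the channel subunit of superficial interneurons, 7.32 ± 0.411 TPM. Htr1a, an inhibitory receptor, stood at 5.27, 4.19 and 8.54 TPM. Htr2a exceeded Htr1a by a ratio of 4.11 ± 0.434. Htr2a, Htr1a, Htr1b and Htr1f each differed more than 2-fold between the highest and the lowest library in deposited TPM; after rescaling the ratios fell to 1.73, 1.66, 1.66 and 1.91. Htr1a, Htr1b and Htr2a were highest in replicate 3, but Htr1f, at 2.45, 1.13 and 1.61 TPM, was highest in replicate 1. Htr2b, Htr3b and Htr5b had no count in any library.

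Of the 5 dopamine receptors 3 had a mean of at least 1 TPM. Drd1, which raises cyclic AMP, stood at 6.04, 4.33 and 6.98 TPM, and Drd2, which lowers it, at 4.19, 2.74 and 4.89 TPM. The Drd1 to Drd2 ratio was 1.48 ± 0.0853, with Drd1 above Drd2 in each library. Drd5 reached 0.972, 0.527 and 1.86 TPM, a 3.53-fold range that rests on 31, 18 and 53 counts. Drd4 had 8, 5 and 0 counts and Drd3 0, 2 and 0. Among adrenergic receptors Adra1d led at 20.3, 17.9 and 30.4 TPM. It lay above Adra1a at 11.3 ± 1.34 TPM, Adrb1 at 10.97 ± 2.97 TPM and Adra2c at 10.5 ± 0.757 TPM, which overlapped each other. Adra2a, the target of guanfacine, averaged 7.05 ± 0.8902 TPM, and Adra1b, at 9.53, 6.84 and 14.03 TPM, ranged 2.05-fold. Adra2b was lowest, with 3, 2 and 2 counts.

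Muscarinic receptors were dominated by Chrm1, the excitatory receptor of pyramidal cells, at 82.5, 60.5 and 107 TPM. Chrm1 made up 61.997% ± 1.32 of muscarinic transcripts, Chrm3 17.5% ± 0.415, the inhibitory Chrm4 15.5% ± 1.94 and Chrm2 4.85% ± 0.549. Chrm2 itself stood at 6.94, 4.17 and 8.67 TPM, a 2.08-fold range. Of the 13 nicotinic subunits only Chrnb2 at 25.7 ± 6.09, Chrna4 at 21.2 ± 4.64, Chrna7 at 13.5 ± 2.79 and Chrna5 at 3.29 ± 0.731 TPM passed 1 TPM in all libraries. These are subunits of common brain receptors, whereas Chrna6 and Chrna9, typical of midbrain dopamine neurons and hair cells, had no count. The histamine receptor Hrh3, which restrains transmitter release, was high at 131, 124 and 165 TPM, against 6.83 ± 0.669 TPM for Hrh1 and 3.83 ± 0.8902 TPM for Hrh2. Of the opioid receptors the nociceptin receptor Oprl1 led at 17.9 ± 3.73 TPM. The delta, mu and kappa receptor genes averaged 4.56 ± 0.928 TPM for Oprd1, 1.21 ± 0.265 TPM for Oprm1 and 0.922 ± 0.126 TPM for Oprk1. Cnr1, the cannabinoid receptor of axon terminals, stood at 117, 80.6 and 131 TPM, and Cnr2, known from immune cells, at 0.428, 0.865 and 0.416 TPM. The inhibitory adenosine receptor Adora1 averaged 38.6 ± 4.98 TPM. Adora2a, a striatal receptor, stood at 2.75, 2.42 and 1.11 TPM, but its counts of 152, 146 and 120 differed far less, with a CV of 45.8% in rescaled TPM against 13.1% in counts scaled to each library's nuclear total. Its spread was thus larger in TPM than in counts.

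Among 24 neuropeptide receptors Ntsr2, a neurotensin receptor of astrocytes, was the most abundant at 146, 172 and 138 TPM, highest in replicate 2. The next were receptors of cortical neurons, all lowest in replicate 2: the cholecystokinin receptor Cckbr at 40.2, 28.3 and 49.8 TPM, the neuropeptide Y receptor Npy1r at 19.5 ± 5.08 TPM and the melanin-concentrating hormone receptor Mchr1 at 18.5 ± 4.07 TPM. The stress hormone receptor Crhr1 averaged 12.02 ± 2.598 TPM and Crhr2 1.23 ± 0.238 TPM. Tacr3, the neurokinin B receptor, stood at 7.21, 4.07 and 9.96 TPM, a 2.44-fold range. The somatostatin receptors Sstr1, Sstr2, Sstr4 and Sstr3 averaged 13.01 ± 4.199, 12.2 ± 2.52, 6.72 ± 2.38 and 5.66 ± 1.41 TPM, and Sstr5 had no count. The oxytocin receptor Oxtr averaged 0.339 ± 0.0691 TPM. Of the neurotrophin receptors Ntrk2, the receptor of BDNF, stood at 265, 292 and 269 TPM and Ntrk3, the receptor of neurotrophin-3, at 53.4 ± 6.62 TPM. Among nuclear receptors Thra, for thyroid hormone, stood at 319, 324 and 344 TPM. The glucocorticoid receptor Nr3c1, at 27.9, 24.7 and 27.3 TPM, exceeded the mineralocorticoid receptor Nr3c2, at 13.8, 11.5 and 14.9 TPM, by a ratio of 1.997 ± 0.158, with no overlap. The oestrogen receptors Esr1 and Esr2 averaged 0.417 ± 0.184 and 0.155 ± 0.123 TPM.

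Over all receptor lists, 110 of 156 genes reached 1 TPM in every library and 118 had a mean of at least 1 TPM, which keeps genes that were high in some libraries only. After rescaling, 83 of those 118 were lowest in replicate 2, beside 45.8% of all nuclear genes, and 69 were highest in replicate 3, beside 38.2%. Another 22 were highest in replicate 2, beside 32.8%, among them Grin2c, Gabrg1 and Ntsr2. Rescaled TPM of Ntsr2 was 228, 304 and 199.7, and that of Grin2c 50.4, 61.4 and 38.9. The median CV of the 118 genes was 20.9% in deposited TPM and 13.6% after rescaling, against 14.5% over all genes and 9.29% over all nuclear genes.

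**Figure D2:**
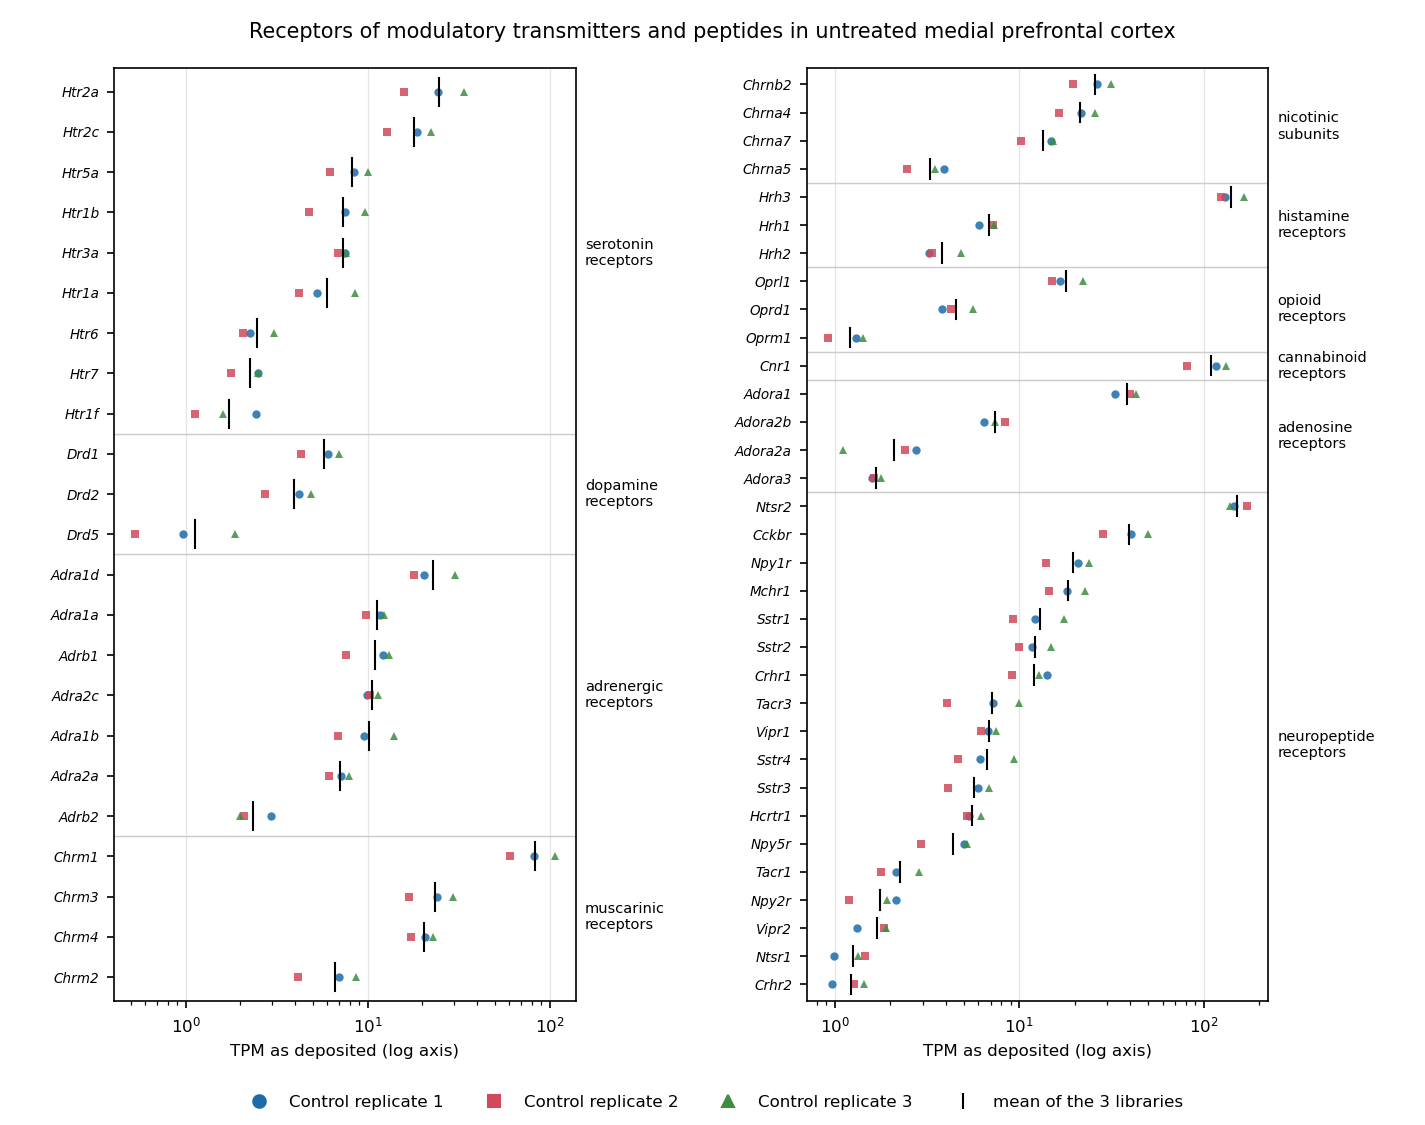
Deposited TPM (log axis) of receptors for modulatory transmitters and peptides with a mean of at least 1 TPM, with a point for each Control library and a bar at the mean. Ntsr2 at 152 and Hrh3 at 139.9 TPM lie far above Drd5 at 1.12 TPM, and replicate 2 (squares) lies lowest for Htr2a, Drd1, Chrm1 and Cckbr.

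Voltage-gated sodium channels start the action potential, and their beta subunits set their placing and kinetics. The beta subunit gene Scn2b stood at 139.7, 98.4 and 171 TPM. Scn2a, the main alpha subunit of pyramidal axons, stood at 128, 86.5 and 146 TPM, with Scn3b, another beta subunit, at 112 ± 24.96 TPM. Scn8a, the alpha subunit of the initial segment, averaged 64.8 ± 16.7 TPM and Scn1a, the alpha subunit rich in fast-spiking interneurons, 29.4 ± 6.82 TPM. The alpha subunits kept fixed proportions: Scn2a made up 50.1% ± 0.581 of their transcripts, Scn8a 26.99% ± 0.718, Scn1a 12.3% ± 0.277 and Scn3a 8.78% ± 0.171. The sensory neuron gene Scn10a had no count. Order inside the libraries was the same for all 8 neighbouring pairs, although only 4 pairs separated over libraries.

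Calcium channels open on depolarisation and drive release and gene activity. Cacnb3, a beta subunit, was the most abundant at 132, 136 and 137 TPM and varied by 1.94% as deposited, but by 10.4% after rescaling. Cacna2d1, the subunit bound by gabapentin, followed at 107, 76.7 and 121 TPM. The highest pore-forming gene was Cacna1e, of the R type, at 77.4, 58.8 and 90.6 TPM, followed by Cacna1a, of the P/Q type, at 44.1 ± 6.69 TPM and Cacna1b, of the N type, at 37.1 ± 8.67 TPM. Cacnb1 averaged 72.8 ± 9.01 TPM. The T-type genes Cacna1i, Cacna1g and Cacna1h averaged 29.1 ± 5.18, 19.9 ± 3.35 and 17.4 ± 2.97 TPM, and the L-type genes Cacna1d and Cacna1c 22.3 ± 4.25 and 11.5 ± 2.69 TPM. Cacna2d4 was lowest with 5, 5 and 0 counts. Only 2 of 14 neighbouring pairs separated over libraries, although 10 kept the same order inside every library.

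Of the Kv1 to Kv4 potassium channels, which repolarise the membrane, Kcnc2 and Kcna2 stood highest at 61.001, 45.3 and 69.7 and 56.5, 45.01 and 67.4 TPM, and Kcnd2, a subunit of the fast transient current, averaged 39.6 ± 8.098 TPM. Kcna4 ranged 2.04-fold, from 5.54 TPM in replicate 2 to 11.3 TPM in replicate 3, and Kcna5 was lowest at 3.05 ± 0.476 TPM. The M current genes Kcnq5 and Kcnq3 stood at 49.3, 35.8 and 58.3 and 32.5, 23.8 and 40.7 TPM, while the cardiac and epithelial Kcnq1 was lowest in its list with 12, 9 and 4 counts. Kcnh3, of the EAG family, averaged 73.4 ± 3.81 TPM, and Kcnma1, the large-conductance calcium-activated channel, 42.1 ± 9.25 TPM. Kcnn2, a small-conductance calcium-activated channel, stood at 16.3, 29.6 and 20.99 TPM from counts of 1337, 1503 and 1478. Its CV was 39.7% in rescaled TPM but 8.71% in counts scaled to the nuclear total.

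Inward rectifiers hold the resting potential and clear potassium. Kcnj10, the potassium channel of astrocytes, led at 82.01, 113 and 85.5 TPM and was highest in replicate 2. The neuronal genes Kcnj4, Kcnj9 and Kcnj3, of which Kcnj9 and Kcnj3 form channels opened by G proteins, were lowest in replicate 2, at 65.1, 49.9 and 80.4, 55.5, 37.3 and 60.3 and 52.9, 31.3 and 58.3 TPM. Kcnj13, an epithelial channel, was lowest in its list at 3.21, 0.697 and 1.94 TPM and had the widest range of any list member with a mean of at least 1 TPM, 4.61-fold as deposited and 4.07-fold after rescaling, from 132, 35 and 67 counts. Of the leak channels with paired pore domains Kcnk1 averaged 66.5 ± 15.3, Kcnk4 26.96 ± 6.41, Kcnk2 18.2 ± 3.16 and Kcnk9 15.5 ± 3.904 TPM. Kcnk10 ranged 2.13-fold, at 5.18, 2.53 and 5.38 TPM, and Kcnk6 was lowest at 1.06 ± 0.148 TPM. HCN channels, which open on hyperpolarisation, were led by Hcn2 at 53.9, 46.9 and 54.6 TPM. Hcn3 at 11.4, 7.93 and 13.6 TPM and Hcn4 at 4.66, 4.09 and 5.104 TPM lay below it, without overlap. In the TRP and chloride channel list Ttyh1, a tweety family gene of astrocytes, was the most abundant of all channels at 587, 681 and 572 TPM. The chloride exchangers Clcn3, Clcn6 and Clcn4 averaged 67.2 ± 7.76, 52.3 ± 8.84 and 50.5 ± 8.68 TPM, and Ano1 was lowest at 0.791 ± 0.118 TPM. Over all channel lists 94 of 105 genes reached 1 TPM in every library. After rescaling, 67 of the 96 with a mean of at least 1 TPM were lowest in replicate 2 and 66 were highest in replicate 3, beside 45.8% and 38.2% of all nuclear genes.

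**Figure D3:**
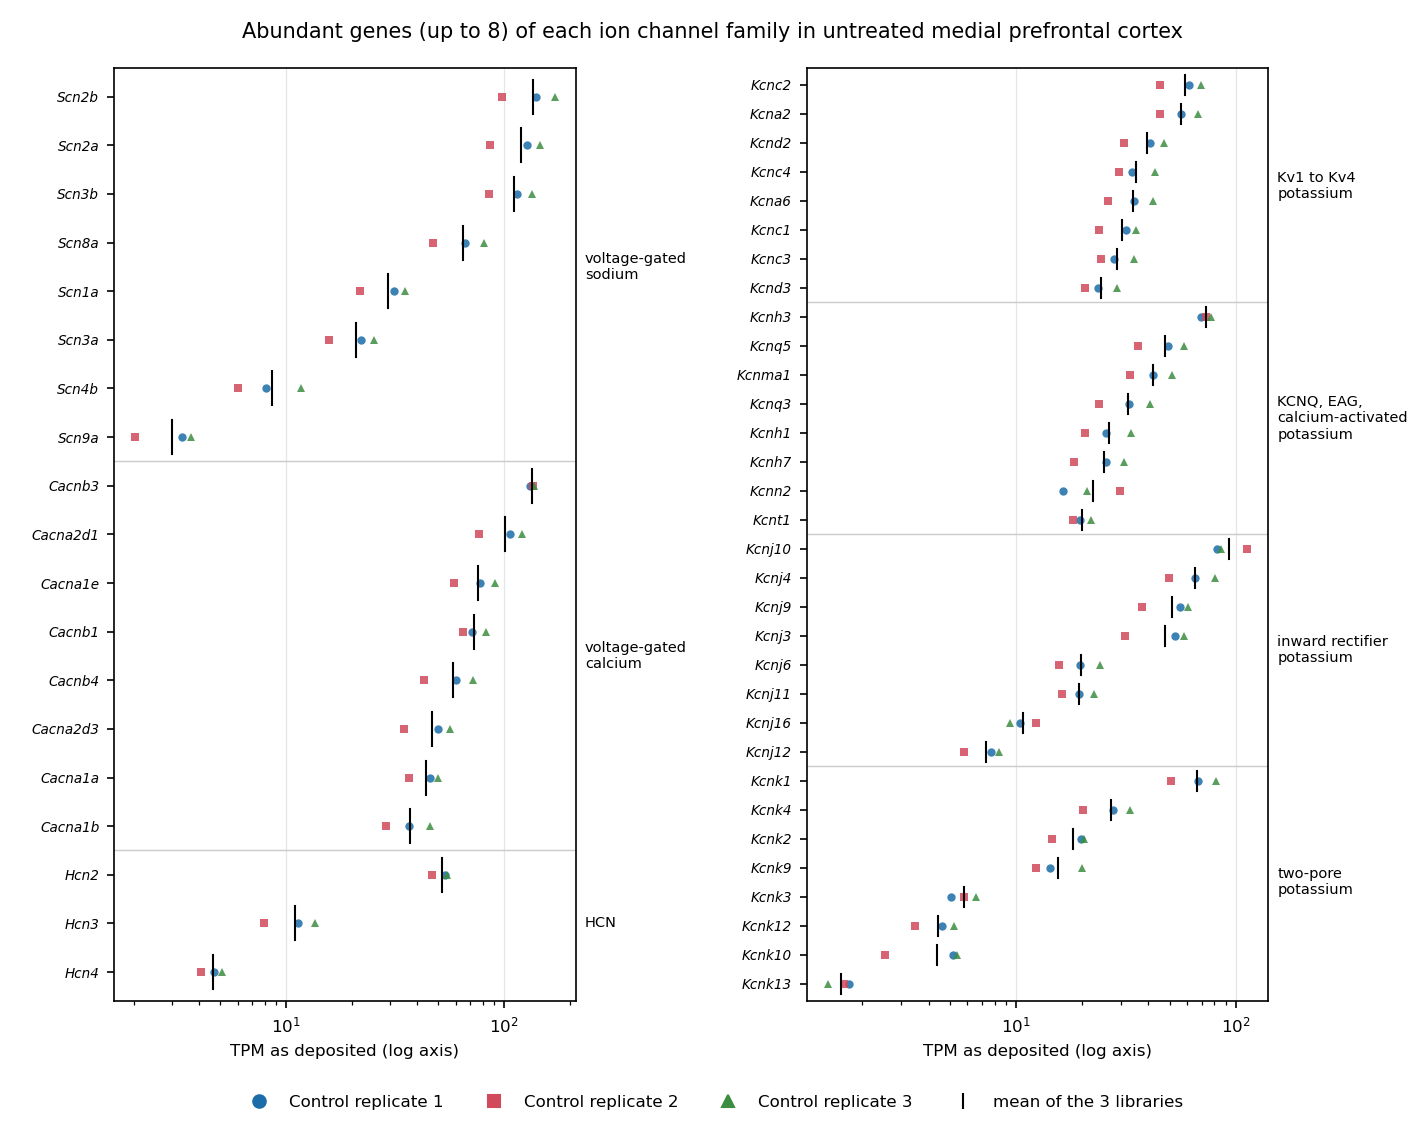
Deposited TPM (log axis) of abundant ion channel genes, up to 8 per family, with a point for each Control library and a bar at the mean. Replicate 2 (squares) lies lowest for all 8 sodium channel genes drawn and highest for Kcnj10, at 113 TPM; the 3 libraries of Cacnb3 lie between 132 and 137 TPM on this deposited scale.

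Genes that make and clear glutamate divided between astrocytic and neuronal ones. Glul, the glutamine synthetase of astrocytes, stood at 1187, 1551 and 1241 TPM, highest in replicate 2. The astrocyte glutamate transporters Slc1a2 and Slc1a3 were likewise highest there at 775, 919 and 774 and 581, 724 and 547 TPM, and their ratio was 1.34 ± 0.0733. Neuronal genes ran the other way: Slc17a7 was lowest in replicate 2, and so was the neuronal transporter Slc1a1 at 46.1, 32.6 and 58.5 TPM. Slc1a6, a transporter of cerebellar Purkinje cells, stood at 1.82, 1.07 and 2.44 TPM, a 2.27-fold range, and the vesicular transporter Slc17a8 was lowest at 0.899 ± 0.246 TPM. Among genes for GABA the chloride extruder Slc12a5 averaged 173 ± 31.7 TPM. The synthetic enzymes Gad1 and Gad2 stood at 119.9, 95.3 and 138 and 76.4, 56.7 and 81.4 TPM, and the degrading enzyme Abat averaged 101 ± 4.86 TPM. Slc17a7 exceeded Gad1 by a ratio of 6.62 ± 0.321 within libraries. Slc6a12, a betaine and GABA transporter, was lowest with 18, 7 and 9 counts.

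Of 17 genes for making, carrying and breaking down monoamines, those for breakdown were highest. Maob, the astrocytic monoamine oxidase, stood at 74.04, 77.5 and 65.4 TPM and Maoa at 57.1, 51.8 and 55.1 TPM. These did not overlap each other, and their order held in every library. The transporters of low affinity Slc29a4 and Slc22a3 averaged 13.04 ± 0.881 and 5.43 ± 1.27 TPM. Of the synthesis genes Ddc, the decarboxylase shared by dopamine and serotonin synthesis, was the highest at 4.71, 6.63 and 3.97 TPM. Th, for the first step of dopamine and noradrenaline synthesis, stood at 1.59, 1.47 and 2.52 TPM, Tph2, its serotonin counterpart, had 36, 19 and 14 counts, and Dbh, for noradrenaline, 4, 11 and 25 counts. The uptake transporters had 0, 0 and 6 counts for Slc6a4 (serotonin), 2, 0 and 0 for Slc6a3 (dopamine) and none for Slc6a2 (noradrenaline), while Pnmt and the histamine enzyme Hdc also had none. Cholinergic genes showed the same division. The degrading enzyme Ache averaged 20.9 ± 5.27 TPM, whereas the synthetic enzyme Chat, the choline transporter Slc5a7 and the vesicular transporter Slc18a3 averaged 0.556 ± 0.112, 1.15 ± 0.217 and 0.457 ± 0.151 TPM.

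Neuropeptide precursors were led by Cck, the cholecystokinin precursor of pyramidal cells and some interneurons, at 513, 426 and 641 TPM. The granins Chgb and Chga, proteins of secretory granules, averaged 199 ± 43.02 and 110.3 ± 24.7 TPM. Somatostatin, Sst, stood at 146, 92.9 and 157 TPM, Vip at 60.2, 47.3 and 59.1 TPM and Npy at 39.1, 34.2 and 42.4 TPM. Scg2 averaged 104 ± 25.003 TPM, and the opioid precursors Penk, Pdyn and Pnoc 36.9 ± 9.53, 13.6 ± 2.81 and 7.23 ± 0.906 TPM. Grp, the gastrin-releasing peptide, ranged 2.08-fold, at 34.8, 20.7 and 42.9 TPM. The stress peptide Crh averaged 5.03 ± 1.37 TPM. The hypothalamic precursors Hcrt, Avp and Oxt had no count in any library, and Nts had 4, 8 and 0 counts. After rescaling, 15 of the 18 precursors with a mean of at least 1 TPM were lowest in replicate 2, beside 45.8% of all nuclear genes. Among growth factors Vegfa stood at 74.2, 69.4 and 69.7 TPM and Bdnf, the ligand of TrkB, at 12.6, 8.12 and 15.5 TPM, lowest in replicate 2. Igf1 averaged 5.81 ± 1.45 TPM, and Fgf2 5.56 ± 1.36 TPM, and Gdnf was lowest with 0, 5 and 24 counts.

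Markers of neurons in general were among the most abundant transcripts. Snap25, a protein of vesicle fusion, stood at 1498, 1085 and 1717 TPM, the vesicle protein Syp at 1067, 771 and 1227 TPM and the calcium sensor Syt1 at 668, 468 and 791 TPM, each lowest in replicate 2. Map2, of the dendritic cytoskeleton, went the other way at 443, 501 and 454 TPM, and Nefm, a neurofilament, was the lowest of the 10 at 37.7 ± 10.3 TPM. Summed over the 10 genes, rescaled TPM was 7885, 6799 and 8370.2, and 9 of the 10 were lowest in replicate 2, beside 45.8% of all nuclear genes. Among excitatory markers 7 of 8 were lowest in replicate 2 after rescaling, beside the same 45.8%. But their sum of 6014, 6291 and 6155 rescaled TPM was highest there, since Camk2a, the most abundant, stood at 1334, 1602 and 1345 deposited TPM. In counts scaled to the nuclear total that sum was highest in replicate 3 instead. Neurod6, a pyramidal cell factor, ranged 2.11-fold at 94.4, 53.6 and 113 TPM.

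Layer markers covered the depth of the cortex. Of upper layers Calb1 averaged 112 ± 20.1, Lamp5 64.5 ± 15.1, Cux2 53.04 ± 2.72 and Rasgrf2 42.03 ± 8.77 TPM, and Rspo1 was lowest with 7, 12 and 13 counts. Of deep layers Crym averaged 236 ± 64.1 TPM, Pcp4 113 ± 21.98 TPM and Etv1, a marker of layer 5, 42.5 ± 7.98 TPM. Fezf2, the factor of subcortical projection neurons, stood at 26.7, 19.6 and 43.4 TPM, a 2.21-fold range, from counts of 1753, 1345 and 1787, whose CV, scaled to the nuclear total, was 12.3%. Rprm ranged 2.05-fold and Foxp2 2.23-fold, at 15.99, 9.73 and 19.96 and 2.197, 0.985 and 1.96 TPM, and Ntsr1, a marker of layer 6 in mouse, was lowest at 1.26 ± 0.247 TPM. The deep-layer sum was 806, 683 and 904 rescaled TPM, lowest in replicate 2 and highest in replicate 3, while the upper-layer sum was 625, 598 and 624. For upper layers the contrast of replicate 2 with the mean of replicates 1 and 3 was −0.06 on the log2 scale in rescaled TPM and 0.06 in counts scaled to the nuclear total, so its direction depends on the scale. Interneuron markers were led by Cck, which pyramidal cells share, then Sst, Gad1 and Pvalb, a calcium-binding protein of fast-spiking cells, at 76.1, 62.98 and 91.1 TPM. As shares of the 3 class markers, Sst took 49.5% ± 3.28, Pvalb 29.2% ± 2.04 and Vip 21.3% ± 2.03. The Sst to Pvalb ratio was 1.703 ± 0.2203. Such shares describe RNA and not cell numbers. Reln averaged 29.04 ± 6.62 TPM, Lhx6, a factor of Sst and Pvalb cells, 7.37 ± 1.12 TPM and Adarb2 8.02 ± 1.01 TPM. Chodl, of a sparse long-range class, was lowest at 0.354 ± 0.137 TPM.

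Glial markers were highest in replicate 2, where most neuronal markers were lowest. S100b, a calcium-binding protein of astrocytes, stood at 1365, 1636 and 1288 TPM, Aldoc, a glycolytic enzyme of these cells, at 681, 829 and 723 TPM and Gfap, their filament protein, at 244, 292 and 234 TPM. Together with Slc1a2 and Slc1a3, all 12 astrocyte markers were highest in replicate 2 after rescaling, beside 32.8% of all nuclear genes, and 10 of 12 were lowest in replicate 3, beside 30.8%. Their sum was 6671, 9072 and 5995 rescaled TPM. The factor Sox9 was the lowest of them at 8.76 ± 0.641 TPM. In TPM the summed neuronal markers divided by the summed astrocyte markers gave 1.18, 0.749 and 1.396 in the 3 libraries. On that scale the neuronal sum exceeded the astrocyte sum in replicates 1 and 3 and not in replicate 2. Per 1000000 nuclear counts the neuronal sum was 9522, 9008 and 9708 and the astrocyte sum 5755, 7907 and 5020. There the neuronal sum was larger in every library, so which sum was larger in replicate 2 depends on the scale. The log2 of the neuronal sum in replicate 2 over its mean was −0.18 in rescaled TPM and −0.06 in these counts. Among myelin genes Mbp stood at 628, 995 and 759.7 TPM, Mobp at 145, 225 and 179 TPM and Cnp at 113, 131 and 128 TPM. Of the 12 oligodendrocyte markers 11 were highest in replicate 2 after rescaling, beside 32.8% of all nuclear genes. Replicate 1 was lowest for 10 of the 12, beside 23.4%, a different lowest library from that of astrocytes. The oligodendrocyte sum was 2189, 3525 and 2443 rescaled TPM. All 10 precursor markers were highest in replicate 2 after rescaling, beside the same 32.8%. They were led by Olig1 at 54.1 ± 9.02, Bcas1 at 45.2 ± 10.02, Pdgfra at 30.2 ± 3.495 and Gpr17 at 17.98 ± 1.34 TPM, with Sox6 lowest at 3.81 ± 0.0739 TPM. All 12 microglial markers were likewise highest in replicate 2, beside the same share. Ctss, a lysosomal protease, averaged 329 ± 24.4 TPM, the complement gene C1qa 87.9 ± 7.46 TPM and the growth factor receptor Csf1r 58.02 ± 5.58 TPM. Itgam was lowest at 6.43 ± 0.524 TPM. The part of these glial and neuronal differences in the library order of receptor and channel genes was not tested.

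Vascular markers were present at moderate levels. Of 11 endothelial genes matched, Slc2a1, the glucose transporter of the blood-brain barrier, averaged 117 ± 18.4 TPM, the tight junction gene Cldn5 68.9 ± 2.07, Slco1a4 48.6 ± 5.03 and Flt1 29.8 ± 2.98 TPM, and Kdr was lowest at 3.896 ± 1.35 TPM. After rescaling 9 were highest in replicate 2 and 10 lowest in replicate 3, beside 32.8 and 30.8% of all nuclear genes. Of mural genes Rgs5, a pericyte marker, averaged 109 ± 13.9 TPM, Tagln 26.1 ± 2.63, Vtn 23.7 ± 1.29 and Acta2, smooth muscle actin, 13.4 ± 2.17 TPM, and Kcnj8 was lowest at 2.37 ± 0.351 TPM. All 10 mural genes were lowest in replicate 3 after rescaling, beside the same 30.8%. Red cell genes followed replicate 2: the globin genes Hbb, Hba1 and Hba-a2 stood at 111, 192 and 127, 187, 261 and 169 and 83.1, 116 and 79.1 TPM, though Hba1 and Hba-a2 are near-identical copies whose reads may be split. The erythroid enzyme Alas2 averaged 0.997 ± 0.194 TPM and the leukocyte gene Ptprc 2.798 ± 0.329 TPM, while the lymphocyte gene Ms4a1 had 2, 0 and 0 counts.

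Markers of the meninges stood apart from all of these, with replicate 1 highest. Ptgds, a prostaglandin synthase of leptomeninges and oligodendrocytes, stood at 1594, 700.1 and 1041 TPM. The anion transporters Slc22a6 and Slc13a3 stood at 8.47, 2.74 and 3.55 and 13.6, 6.73 and 9.06 TPM, and the collagen genes Col1a2, Col1a1 and Col3a1 at 8.61, 3.21 and 5.64, 6.702, 2.97 and 4.89 and 12.2, 6.36 and 6.801 TPM. Igf2 stood at 28.9, 15.4 and 24.7 TPM, the proteoglycan Dcn at 9.13 ± 1.27 TPM and Lum, the lowest of the list, at 3.895 ± 0.177 TPM. After rescaling 9 of 10 were highest in replicate 1, beside 29.0% of all nuclear genes, and the exception was Lum. The summed list was 2649.7, 1335 and 1603 rescaled TPM, nearly all of it Ptgds. Of the 11 choroid plexus and ependyma markers, Ttr, Folr1, Clic6 and Tmem212 had no count in any library, and Ttr is among the most abundant transcripts of choroid plexus. The 4 highest were Rarres2 at 24.6, 22.2 and 15.3, Kcnj13, Dynlrb2 at 2.69, 1.86 and 1.16 and Aqp1 at 1.91, 0.435 and 1.78 TPM. Kcnj13, Dynlrb2 and Aqp1 had only 132, 35 and 67, 32, 24 and 13 and 110, 27 and 92 counts.

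**Figure D4:**
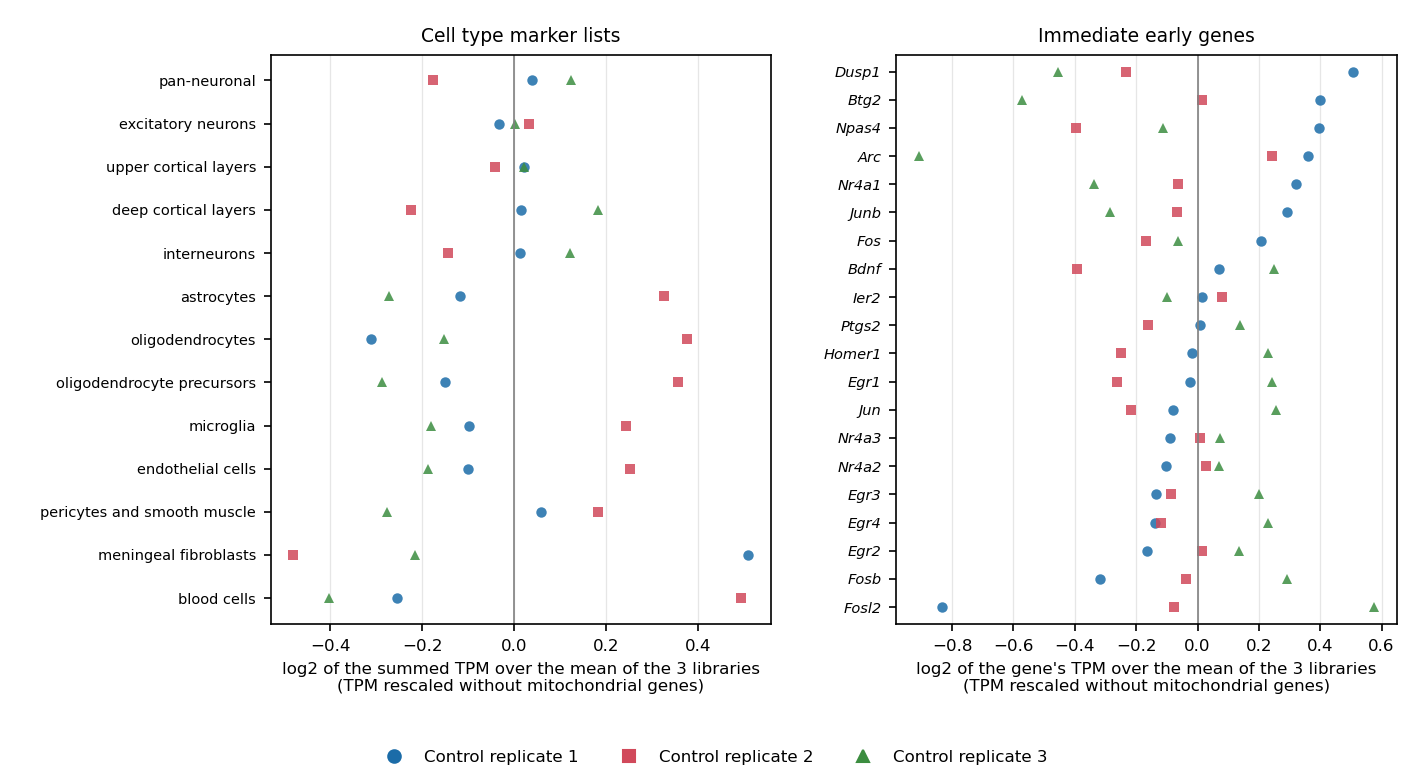
Left, log2 of each marker list's summed TPM over its mean of the 3 Control libraries, after rescaling without mitochondrial genes; right, the same for each immediate early gene. Replicate 2 (squares) is highest for glial, endothelial and blood lists (0.32 for astrocytes, 0.37 for oligodendrocytes) and lowest for pan-neuronal markers (−0.18), replicate 1 (circles) is highest for meningeal markers (0.51), and early genes split between replicate 1 and replicate 3, with Fosl2 from −0.83 to 0.57.

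Immediate early genes are used as marks of recent neuronal activity, since they are transcribed within minutes of a stimulus without new protein synthesis. All 20 reached 1 TPM in every library. TPM is given per gene here, so transcript forms of the same gene, such as those of Homer1 or Bdnf, cannot be told apart. Egr1, a zinc finger factor, was the most abundant at 77.4, 57.996 and 101 TPM, followed by the scaffold gene Homer1 at 63.5, 47.8 and 81.9999 TPM, Junb at 43.4, 29.9 and 31.6 TPM and Egr3 at 31.6, 28.8 and 43.3 TPM. Npas4, a factor specific to neuronal activity, was lowest at 4.14, 2.11 and 3.16 TPM, and Fos averaged 9.27 ± 1.75 TPM. The early genes did not share a library order. After rescaling, 12 were highest in replicate 3, 7 in replicate 1 and 1 in replicate 2, beside 38.2, 29.0 and 32.8% of all nuclear genes. Dusp1, a phosphatase that switches off MAP kinases, stood at 57.2, 34.3 and 29.4 rescaled TPM, Nr4a1, an orphan nuclear receptor, at 65.8, 50.4 and 41.7, Junb at 67.9, 53.002 and 45.5 and Btg2, an antiproliferative gene, at 21.8, 16.7 and 11.1, each highest in replicate 1 and lowest in replicate 3. Arc, whose protein acts at synapses, was also highest in replicate 1 at 64.2, 59.1 and 26.6 rescaled TPM, with replicate 3 far below both others, from 2829, 2564 and 1109 counts. Fosl2, a Fos family factor, had the reverse order at 5.83, 9.84 and 15.4 rescaled TPM, from 78, 125 and 202 counts. That reverse order was the commonest, held by 7 of the 20 genes, against 5 highest in replicate 1 and lowest in replicate 3. Egr1 was highest in replicate 3 at 121, 103 and 146. The hour of dissection is not stated, and its part in these differences was not tested.

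The promoters of 4 early genes highest in replicate 1 and lowest in replicate 3 are shown beside that of Fosl2. Fosl2 is 1 of the 7 early genes with the reverse order. Each window holds the 250 bases before the RefSeq start site on GRCr8, 5′ to 3′ on the gene's strand; the deposited values used another build (rn6), so these coordinates belong to GRCr8 alone. RefSeq windows were found for 15 of the 20 early genes, Arc not among them. Capitals mark a cAMP response element (TGACGTCA, a sequence bound by CREB, which equals its own reverse complement) in Dusp1 and Btg2 and a TATA box (TATAAA, searched on both strands) in Junb. The windows are Dusp1 at chr10:17184603-17184852 (plus strand), Btg2 at chr13:48087691-48087940 (minus strand), Junb at chr19:40080876-40081125 (plus strand), Nr4a1 at chr7:134259888-134260137 (plus strand) and Fosl2 at chr6:30039270-30039519 (minus strand).
Dusp1: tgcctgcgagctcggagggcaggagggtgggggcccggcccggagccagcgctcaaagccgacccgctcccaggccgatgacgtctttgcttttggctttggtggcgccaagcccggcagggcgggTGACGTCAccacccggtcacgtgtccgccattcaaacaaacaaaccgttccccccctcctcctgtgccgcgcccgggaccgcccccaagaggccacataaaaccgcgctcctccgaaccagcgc
Btg2: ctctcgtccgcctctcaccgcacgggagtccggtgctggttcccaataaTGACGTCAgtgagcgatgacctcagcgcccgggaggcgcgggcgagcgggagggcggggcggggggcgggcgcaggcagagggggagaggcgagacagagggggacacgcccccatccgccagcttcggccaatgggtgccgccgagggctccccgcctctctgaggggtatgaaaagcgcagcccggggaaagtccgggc
Junb: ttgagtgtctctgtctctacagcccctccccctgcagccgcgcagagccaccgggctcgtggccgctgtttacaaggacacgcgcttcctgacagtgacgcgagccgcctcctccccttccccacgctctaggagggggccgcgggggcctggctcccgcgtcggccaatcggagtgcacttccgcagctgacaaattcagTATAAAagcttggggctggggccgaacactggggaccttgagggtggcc
Nr4a1: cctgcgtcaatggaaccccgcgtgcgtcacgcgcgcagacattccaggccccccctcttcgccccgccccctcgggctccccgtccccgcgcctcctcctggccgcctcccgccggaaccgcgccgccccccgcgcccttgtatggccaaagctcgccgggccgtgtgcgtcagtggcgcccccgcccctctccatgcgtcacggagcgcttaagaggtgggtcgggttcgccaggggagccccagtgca
Fosl2: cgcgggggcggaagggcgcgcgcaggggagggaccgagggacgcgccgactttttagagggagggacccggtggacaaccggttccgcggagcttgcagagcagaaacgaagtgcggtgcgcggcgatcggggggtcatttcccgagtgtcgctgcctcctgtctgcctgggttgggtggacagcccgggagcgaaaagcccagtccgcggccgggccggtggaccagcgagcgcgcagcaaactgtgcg
The response element began 124 bases before the start in Dusp1 and 201 bases before it in Btg2. It occurred in 1.59% of 33469 windows of the same length and the TATA box in 12.9%. The CArG box, the site of serum response factor, occurred in 1.497%. The median GC content of all those windows was 51.2%, while the windows shown held from 66.0% (Junb) to 74.8% (Nr4a1). The shares were not matched for base composition, so they are no test of enrichment. No CArG box lay in any of the windows shown, and no full response element in those of Junb, Nr4a1 and Fosl2. A match describes letters only and is no evidence of binding, and the absence of a match says only that those letters are not in the window.

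Mitochondrially encoded genes took 15.7, 20.4 and 12.5% of the counts, a smaller share than of TPM, but 14 of the 15 highest genes by TPM. The subunit genes of ATP synthase and cytochrome oxidase led: ATP6 stood at 54282, 64696 and 45095 TPM, COX1 at 49494, 59431 and 42697, ATP8 at 42156, 50485 and 34607, COX3 at 40899, 47860 and 34484 and COX2 at 40634, 47764 and 34136 TPM. CYTB, ND1, ND2, ND4L, ND4 and ND3 ranged from 23346 ± 3980.3 down to 7819 ± 1357 TPM, and ND6, encoded on the other strand, was lowest at 1144 ± 174 TPM. The other genes among the 15 highest were the mitochondrial ribosomal RNAs mt-Rnr1 and mt-Rnr2 at 8384 ± 1421 and 8508 ± 1399 TPM, the transfer RNA Trns1 at 8992 ± 1869.8 TPM and, as the only nuclear gene, Bc1. Bc1, a short non-coding RNA of neuronal dendrites, stood at 11592, 13529 and 8707 TPM. All 13 mitochondrial protein genes were highest in replicate 2 and lowest in replicate 3. Nuclear genes for basic functions moved with the rest: Gapdh stood at 2246, 1892 and 2562, Ppia at 1399, 1035 and 1493, Actb at 1208, 1007 and 1319 and Ywhaz at 863, 634 and 977 TPM, and Tbp was lowest at 7.15 ± 0.52004 TPM. Rescaled, Gapdh stood at 3517, 3352 and 3695 and Actb at 1892, 1783 and 1901 TPM.

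Over all genes the 3 libraries were close. Across genes, which are not independent replicates, Pearson's r of log2(TPM + 1) was 0.991 between replicates 1 and 2, 0.994 between 1 and 3 and 0.988 between 2 and 3. The median CV of the 15191 genes with a mean of at least 1 TPM was 14.5%. Among nuclear genes it fell to 9.29% after rescaling and was 8.77% in counts scaled to the nuclear total, against 3.48% from counting reads alone. That counting value is the CV expected in theory, while the others are sample values from 3 libraries, whose median lies below the true CV. The counting values here are therefore somewhat too high for a direct comparison. The spread was widest, at 17.9% after rescaling, for genes from 1 to 3 TPM, where counting gives 10.8%, and narrowest, at 7.10%, from 30 to 100 TPM, where counting gives 1.91%. Among genes of 300 to 1000 TPM it was 11.5%, and 11.9% in the 31 nuclear genes above 1000 TPM, which include Snap25, Glul and S100b. Replicate 2 weighs on this spread: without it the median CV of deposited TPM fell to 8.17%. In the order of genes within families 103 of 238 neighbouring pairs separated with all libraries, and 139 of 246 after rescaling. A pair that separates over all libraries stays separate over fewer, so leaving out any library tends to raise that count. It was 164 of 240 without replicate 2, against 109 of 238 without replicate 1 and 133 of 235 without replicate 3.

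**Figure D5:**
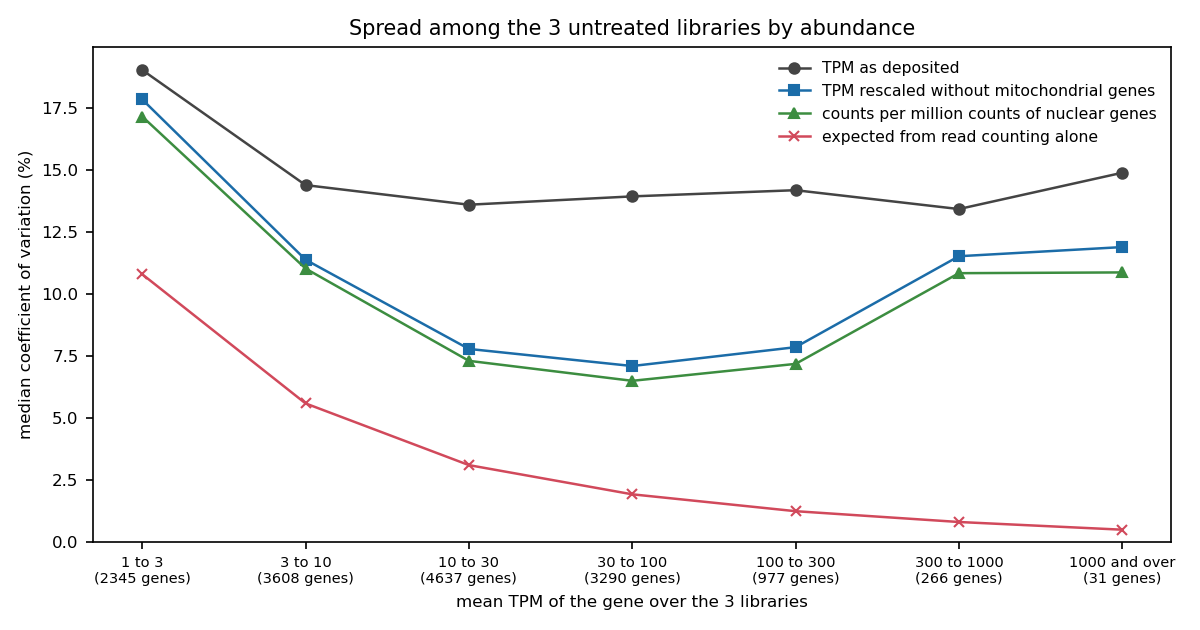
Median CV (%) of genes over the 3 Control libraries in bins of mean TPM, for deposited TPM, TPM rescaled without mitochondrial genes and counts scaled to the nuclear total. The CV expected in theory from counting alone is drawn beside them. Rescaling lowers the median from 13.6 to 7.79% for genes of 10 to 30 TPM, and the curve of read counting falls from 10.8% to 0.484% across the bins.

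Wide ranges were uncommon. Of the 455 list genes with a mean of at least 1 TPM, 30 (6.59%) differed at least 2-fold between their highest and lowest library in deposited TPM, as did 509 (3.35%) of all 15191. Replicate 2 was the lowest library in deposited TPM for 26 of the 30, beside 74.3% of all 15191, and 10 remained 2-fold after rescaling. Those reported here are named above. Of the 30, 12 were highest in replicate 1 and 18 in replicate 3, beside 19.4% and 69.0% of all 15191. In the whole table, the 15 genes with a symbol, a mean of at least 5 TPM and a mean count of at least 50 that varied most mostly shared a library order. Coch, of the extracellular matrix, stood at 21.1, 5.94 and 11.7 TPM, the retinoic acid binding protein Crabp2 at 9.81, 3.64 and 4.01 TPM, the calcium-binding protein S100a6 at 10.01, 2.76 and 4.51 TPM and the proteoglycan Fmod at 10.2, 3.66 and 6.76 TPM. Ogn, another proteoglycan, was listed under gene IDs 291015 and 108348095, at 14.2, 5.22 and 7.94 TPM and at 13.7, 5.00 and 7.68 TPM. Ranbp3l stood at 18.1, 7.26 and 9.86 TPM, the glutathione transferase Gstm2 at 14.9, 5.75 and 7.61, the stress gene Nupr1 at 9.77, 3.94 and 4.94, and Tnnt2, a troponin of cardiac muscle, at 12.2, 4.62 and 5.74 TPM. With Col1a2 these were highest in replicate 1 and lowest in replicate 2. Of the 15, 11 were highest in replicate 1 and 13 lowest in replicate 2 in deposited TPM, beside 19.4% and 74.3% of all 15191 genes. The others were Fosl2 and Moap1, an apoptosis modulator at 30.2, 19.2 and 82.2 TPM, the pseudogene Scand3-ps1 at 5.67, 3.18 and 8.97 TPM, and Scd4, a desaturase with near-identical paralogs. Scd4 stood at 12.3, 14.8 and 0 TPM, from 340, 441 and 0 counts, so that it was listed at 0 in replicate 3 alone, and reads shared with its paralogs leave this value uncertain.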

How the data were processed

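RNA of medial prefrontal cortex was sequenced as poly(A)-selected, stranded TruSeq libraries, per the labels' protocols. The submitters' processing notes name bcl2fastq 2.20.0, Trimmomatic, HISAT2 2.1.0, StringTie 2.1.3b and the build rn6; the counting tool and its strand setting are not stated there. The authors deposited gene counts, FPKM and TPM for each library. Levels and orders were taken from the deposited TPM, and deposited FPKM served as an alternative. The deposited counts gave depth (42729200, 42731004 and 40863756), the CV expected from counting (1 over the square root of the mean count), the limit of 3 counts behind a 0, and a scaling with TMM (edgeR 4.0.16, R 4.3.3). Symbols that a spreadsheet had turned into dates were restored from gene IDs.

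Computation used Python 3.11.15 with numpy 2.4.6 and pandas 2.3.3, checked on simulated data. TPM was also rescaled without the 37 mitochondrial genes. No test was run, since 1 group allows no comparison, and the spread per gene is described beside that of counting, untested. Named were the 4 highest and the lowest member of each list over 8 genes, members with a 2-fold range, and the 15 most abundant and 15 most variable genes, the latter with a mean of at least 5 TPM and 50 counts; others were named for their level. Some genes that this rule names are not reported here. Members and lists were chosen with earlier results of these data known, and the subunit shares and the promoters after the values here had been seen. Genes with near-identical or overlapping copies are uncertain. Alternatives were other scalings, minimum levels and units, and leaving out each library. The other 6 libraries were left out because untreated tissue alone is described.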

Additional observations from a re-analysis of the deposited data

How the results depend on the processing

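The median CV of 14.5% was 8.77% with counts scaled with TMM and ranged from 8.17 to 17.7% when each library was left out in turn, lowest without replicate 2. Of the neighbouring pairs 103 separated, 139 after rescaling, and 109 to 164 when each library was left out, most without replicate 2. Fewer libraries leave fewer values to overlap, so a rise with a library left out says little of stability. The genes at or above 1 TPM in all libraries, 14673 in number, ranged from 14767 to 14976 with a library left out. Asking for fewer libraries can only raise this count, so that range says nothing of stability. The count was 15456 after rescaling, 15848 at 0.5 TPM, 10998 at 5 TPM, 13210 by FPKM and 17217 by at least 10 counts. An alternative chosen after seeing the data contrasted replicate 2 with the mean of replicates 1 and 3. For upper cortical layers this contrast was −0.06 (log2) in rescaled TPM and 0.0633 in counts scaled to the nuclear total. The cause was not tested, and the other 15 marker lists kept their direction. In those counts, however, the log2 of replicate 2 over the list mean was only 0.0018 for excitatory neurons and 0.0159 for choroid plexus and ependyma. Rescaling without mitochondrial genes moved 438 member means and all 16 marker list sums by more than 1 SD and 4 member means by less, by its construction. Leaving out 1 of 3 libraries cannot move a mean by 1 SD, so those values for single genes, ratios and list sums say nothing of stability. Depth limits values below about 3 TPM, where the CV expected from counting alone was 10.8%. No paired analysis was possible because only 1 group was described and no result comes from a test.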

Other observations

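Among RNAs known to travel into dendrites the library order differed. Rescaled TPM of Bc1 was 18157, 23963 and 12556, that of Map2 693, 887 and 654 and that of Camk2a 2089, 2837 and 1939.6, each highest in replicate 2, whereas Arc was highest in replicate 1 at 64.2, 59.1 and 26.6. These genes were chosen after their values had been seen, and no reason for the pattern was tested.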
